A study of Mus musculus with 3 samples.

Results

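The ATP-binding cassette (ABC) transporter family was followed over passages of KH2 cells, a mouse embryonic stem cell line, carrying an inducible knockout of Pold3, an accessory subunit gene of DNA polymerase delta. Members were all protein-coding genes whose mouse symbol is Abca to Abcg followed by a digit, which gave 50 genes of the 50043 gene IDs in the deposited table. There were 3 libraries of total RNA, 1 each from passages P0, P1 and P2. The 3 groups share the line and the inducible allele, and the labels give neither the inducing agent nor the time of induction relative to P0, nor a line without the allele. Each difference below compares single libraries, so it has no replicate check and no p-value.

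ABC proteins carry a cassette that binds and hydrolyses ATP. In most members of subfamilies A, B, C, D and G the cassette drives transport of lipids, drugs, conjugates, peptides or metals. This transport crosses the plasma membrane or the membranes of mitochondria, peroxisomes and lysosomes. Subfamilies E and F lack membrane spans and act on ribosomes. In stem cells the family is best known for efflux pumps, among them Abcg2, whose dye export defines the side population of several tissue stem cells.

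Values are FPKM as deposited by the authors, which divide the fragments on a gene by its length and by the size of the library. For P0, P1 and P2 the read totals inferred from the FPKM values were 23213528, 18059914 and 22405670. With these totals, 3 reads over 2 kb of gene equal 0.0646, 0.0831 and 0.0669 FPKM. Pold3 measured 49.2, 13.0 and 11.6 FPKM, past 2-fold lower in both later libraries. Pluripotency genes marked all 3 libraries: the 8 listed embryonic stem cell markers summed to 3763, 3661 and 4011 FPKM. At P1 or P2, 0 of 8 passed 2-fold, beside 4.12% and 6.72% of all genes higher and 0.549% and 1.16% lower. Single markers were not all level: Esrrb measured 221, 127 and 118 FPKM and Nanog 179, 165 and 240 FPKM. The ratio of Esrrb to P0 was 0.535 at P2 and that of Nanog 1.34. Markers of some other cells were higher at later passages. The 9 trophoblast markers summed to 74.8, 124 and 161 FPKM. Past 2-fold higher were 2 of 8 compared at P1 and 5 of 8 at P2, against 4.12% and 6.72% of all genes. Cdx2, Gata3 and Hand1 were below FPKM 1 at P0, so they could only be higher. Eomes measured 6.06, 4.13 and 8.06 FPKM. The 7 macrophage and blood cell markers summed to 93.8, 208 and 235 FPKM. There Laptm5 and Cd68 made up nearly all of the sum, and Ptprc, Csf1r and Adgre1 stayed at or below 0.324 FPKM. The 10 fibroblast markers summed to 196, 160 and 129.5 FPKM, mostly from Fn1, with Col1a1 and Thy1 past 2-fold higher and Postn at 0 throughout. Endoderm markers summed to 8.37, 11.6 and 14.2 FPKM, with Cxcr4, below FPKM 1 at P0, past 2-fold higher at P1 and P2. Endothelial markers summed to 25.5, 27.2 and 47.3 FPKM, mostly from Pecam1 with 21.5, 16.6 and 33.5. Among them Tek was past 2-fold higher at P1 and P2, and Cdh5 stayed at or below 0.0822 FPKM. Hepatocyte markers summed to 64.0, 74.2 and 71.8 FPKM, of which Alb made up most. Neural markers summed to 142, 149.5 and 195.5 FPKM, mostly from Tubb3. Past 2-fold lower were 2 of 5 compared at P1 and 0 of 5 at P2, against 0.549% and 1.16% of all genes. The 2 were Pax6 with 4.35, 1.42 and 2.14 FPKM and Sox1 with 1.91, 0.401 and 0.887 FPKM. Sox1 reached FPKM 1 at P0 alone, so it could only be lower. The part of these markers in the results below was not tested. In such bulk samples, fewer cells of a type and less RNA per cell cannot be told apart.

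On the log2(FPKM + 1) scale, Abcb1b lay further from P0 than the other members compared. By the FPKM ratio it does not stand alone: among members that reached FPKM 1, the intervals of Abcc2 at P1 and P2 and of Abcb5 at P2 overlap its own, at far lower levels. Abcb1b encodes P-glycoprotein, a broad efflux pump for hydrophobic drugs, for which rodents carry a pair of genes, Abcb1a and Abcb1b, in place of the single human ABCB1. Abcb1b measured 20.4 FPKM at P0, 106 at P1 and 125 at P2, from 750, 3027 and 4434 reads. Both later libraries lay far above P0, and P2 lay above P1 by much less. The ratio was 5.19 for P1 over P0 (exact 95% interval 4.79 to 5.63), 6.13 for P2 over P0 (5.67 to 6.63) and 1.18 for P2 over P1 (1.13 to 1.24). These intervals come from the reads of 2 libraries and cover counting error only. On the log2(FPKM + 1) scale its difference from P0 was 2.32 at P1 and 2.56 at P2, above 99.9% and 99.8% of all genes compared. By FPKM, Abcb1b was the 8th of the 50 members at P0, the 4th at P1 and the 3rd at P2. Its share of all reads on the family was 1.70% at P0, 8.09% at P1 and 9.73% at P2.

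Abcb1b lies on chromosome 5 between its sister genes Abcb1a and Abcb4, neither of which was past 2-fold. The 250 bases before the RefSeq start of each gene (build GRCm38.p6, which differs from the mm9 named by the submitters) are shown because the 3 genes differ so much in their values across passages. They were searched on both strands for the CCAAT box, the GC box GGGCGG, the TATA box TATAAA and single copies of the p53 consensus repeat RRRCWWGYYY. There R is A or G, W is A or T and Y is C or T. Pairs of p53 repeats were not searched for. Matches are in capitals. None of the matches overlap.
Abcb1b, chr5:8797897-8798146, plus strand: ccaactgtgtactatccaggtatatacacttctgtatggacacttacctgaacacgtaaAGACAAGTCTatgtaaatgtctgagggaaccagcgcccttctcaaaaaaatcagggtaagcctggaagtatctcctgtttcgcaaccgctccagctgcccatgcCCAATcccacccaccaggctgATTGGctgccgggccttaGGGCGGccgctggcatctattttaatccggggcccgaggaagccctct
Abcb1a, chr5:8566841-8567090, plus strand: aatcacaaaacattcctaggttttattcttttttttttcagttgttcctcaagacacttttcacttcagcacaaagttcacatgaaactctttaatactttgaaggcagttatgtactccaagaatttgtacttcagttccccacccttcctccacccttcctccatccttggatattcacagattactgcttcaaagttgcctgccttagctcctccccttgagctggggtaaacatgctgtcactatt
Abcb4, chr5:8893471-8893720, plus strand: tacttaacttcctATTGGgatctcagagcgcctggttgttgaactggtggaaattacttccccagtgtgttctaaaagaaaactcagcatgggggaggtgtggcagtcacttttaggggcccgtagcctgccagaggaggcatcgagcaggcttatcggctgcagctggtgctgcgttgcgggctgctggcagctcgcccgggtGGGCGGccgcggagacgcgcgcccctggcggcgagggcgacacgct
The Abcb1b window holds 1 p53 consensus repeat, 191 to 182 bases before the start, and CCAAT at 87 to 83 and, on the opposite strand, at 66 to 62 bases before it. It also holds GGGCGG at 48 to 43 bases before the start. The Abcb4 window holds CCAAT on the opposite strand at 237 to 233 bases and GGGCGG at 46 to 41 bases before its start. In the Abcb1a window these letters were not found, and no GENCODE M21 transcript of Abcb1a begins with the bases at its RefSeq start, unlike for Abcb1b and Abcb4. Of 32851 promoter windows of this length, 7.13% held the p53 repeat, 33.8% the CCAAT box, 32.7% the GC box and 12.4% the TATA box. Among the 45 windows of the 38 members that have one, 4 held the p53 repeat, 13 the CCAAT box, 20 the GC box and 5 the TATA box. A match is a description of the letters and shows no binding.

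Abcb1a measured 5.03, 7.80 and 8.21 FPKM from 243, 293 and 383 reads. Both later libraries were above P0, by 1.55-fold at P1 (interval 1.30 to 1.84) and 1.63-fold at P2 (1.39 to 1.93), short of the 2-fold used here for a call. Abcb4, which moves phosphatidylcholine into bile in liver, had 15, 19 and 16 reads and at most 0.409 FPKM. Abcb1a and Abcb1b are similar in sequence. Of the 50-base windows of the longest coding transcript, 17.0% in Abcb1a and 18.3% in Abcb1b also occur in another gene, mostly in the other gene of the pair. The treatment of such reads in the authors' counting was not stated in the labels. Summed over both genes, the reads numbered 993, 3320 and 4817, and the ratio to P0 was 4.30 at P1 (interval 4.002 to 4.62) and 5.03 at P2 (4.69 to 5.39).

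The 5 annotated protein-coding neighbours on each side of Abcb1b include Abcb1a and Abcb4. Of these 10, 8 reached FPKM 1 and 0 passed 2-fold at P1 or P2, beside 4.12% and 6.72% of all genes higher. Crot, a peroxisomal acyltransferase gene beyond Abcb4, measured 9.27, 11.5 and 11.7 FPKM. Dbf4, which encodes the regulatory subunit of the Cdc7 replication kinase, measured 108, 96.2 and 88.1 FPKM. Rundc3b, next to Abcb1a, measured 3.13, 2.92 and 3.09 FPKM.

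**Figure D1:**
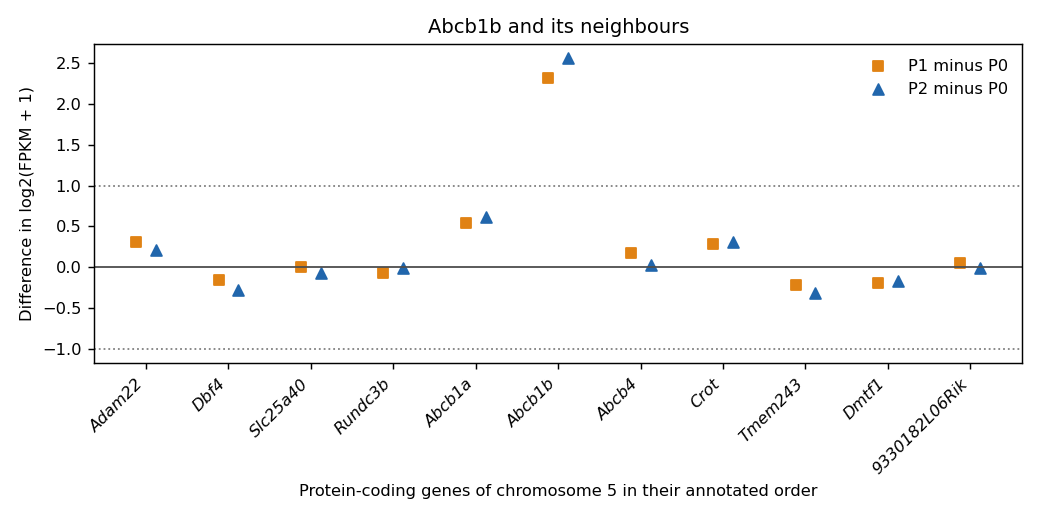
Difference from P0 in log2(FPKM + 1), on the y axis, for Abcb1b and the 5 protein-coding genes on each side of it on chromosome 5, in annotated order on the x axis. Squares are P1 minus P0 and triangles P2 minus P0, from 1 library per passage, and dotted lines mark 2-fold. Abcb1b lies at 2.32 and 2.56, while the next largest values are those of Abcb1a, 0.54 and 0.61.

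Across the family, 25 of the 50 members reached FPKM 1 in 1 or more libraries and 21 reached it in all 3. The other 4, Abca1, Abcb5, Abcc2 and Abcc8, were below 1 at P0 and passed through a later library, so they could only be higher there. A call past 2-fold needs a difference of 1 or more in log2(FPKM + 1) and an FPKM that reaches 1 in either library. On that scale low genes need more than a 2-fold ratio. Between P1 and P0, 1 of 24 members compared was higher (4.17%), against 4.12% of all 13288 genes, and 0 were lower, against 0.549%. Between P2 and P0, 2 of 24 were higher (8.33%), against 6.72% of 13472 genes, and 0 were lower, against 1.16%. Between P2 and P1, 0 of 25 passed 2-fold in either direction, against 0.78% of 13585 genes higher and 0.883% lower. These shares are near those of all genes. The members called were Abcb1b at P1 and P2 and Abcb5 at P2.

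**Figure D2:**
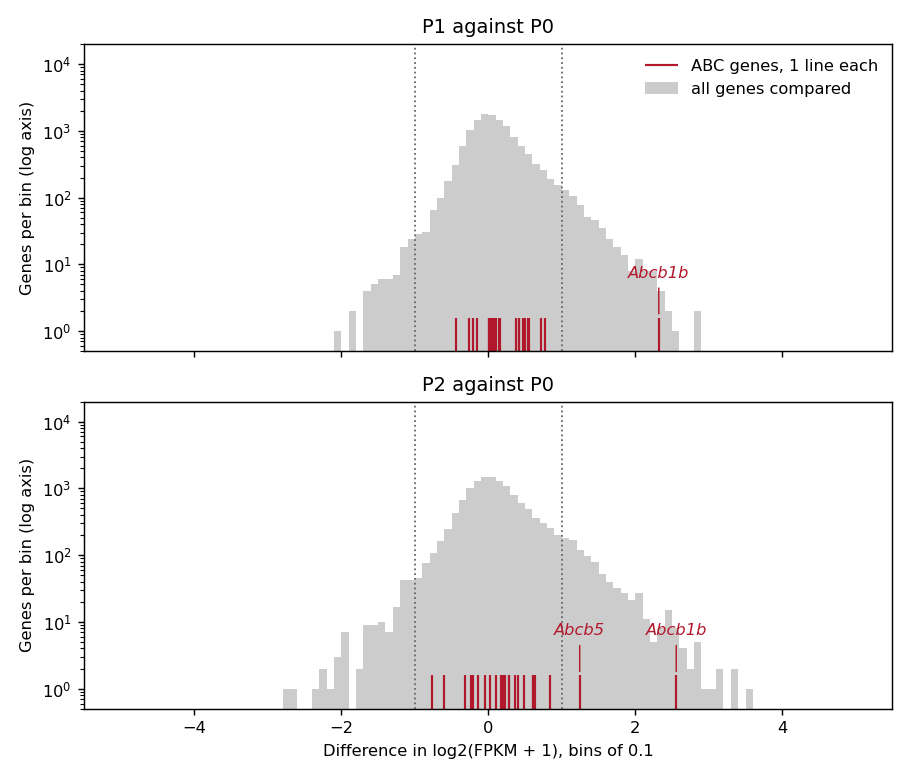
Differences from P0 in log2(FPKM + 1), on the x axis, for P1 (top) and P2 (bottom). Grey bars count all genes compared in bins of 0.1 on a log y axis, red lines mark the ABC genes compared, 1 line per gene at an arbitrary height, and dotted lines mark 2-fold. Most of the 24 members lie within 2-fold of P0, with Abcb1b out at 2.32 and 2.56.

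The median difference of the members compared was 0.12 at P1 and 0.22 at P2 against P0, beside 0.06 and 0.07 over all genes compared. Values were positive in 20 of 24 members at P1 (83.3%, against 57.6% of all genes) and in 17 of 24 at P2 (70.8%, against 57.7%). Leaving aside the floor, over members with any read the medians were 0.07 at P1 and 0.11 at P2, beside 0.049 and 0.053 over all genes. The interval of the FPKM ratio lay above 1 for 11 of 24 members at P1 (45.8%, against 34.6% of all genes) and below 1 for 4 (16.7%, against 22.8%). At P2 it lay above 1 for 14 of 24 (58.3%, against 39.5%), Abcf3 with its uncertain interval among them, and below 1 for 6 (25%, against 25.9%). Between P2 and P1 it lay above 1 for 5 of 25 and below 1 for 5, which is 20% each, against 24.1% and 19.1% of all genes. Against P0, Abca1, Abcc2 and Abcc8 at P1 and Abca1, Abcb5 and Abcc2 at P2 were compared only through the later library. They could only be positive, and their intervals are among those above 1. All genes compared passed the same floor. Over the 23 members whose mean FPKM over the 3 libraries was at least 1, the medians were 0.10 at P1 and 0.21 at P2. No value for all genes was computed with that filter. From 1 library per passage, these shares and medians do not show a lean of the family, which was not tested. Directions near 0 depend on scaling. With median-of-ratios scaling the members' median was 0.01 at P1 and 0.11 at P2, beside -0.05 over all genes at both. At P1 the direction of Abca2, Abca3, Abca7 and Abcb8 flips with median-of-ratios and with quantile scaling, and that of Abcc1, Abcd3, Abcf1 and Abcf3 with median-of-ratios scaling alone. At P2 that of Abcc1 flips with both, and that of Abca3 and Abca7 with quantile scaling. Outside Abcb1b, summed reads on the family stood at 1.02 of P0 at P1 (interval 1.01 to 1.03) and 0.984 at P2 (0.971 to 0.998). Abce1 and the Abcf genes hold most of those reads, and single subfamilies differed. The ratio of summed reads to P0 was 1.12 at P1 and 1.17 at P2 in subfamily A, 1.05 and 1.14 in B without Abcb1b, 1.13 and 1.0004 in C, 1.196 and 0.981 in D and 0.984 and 0.825 in G. The intervals of C and D at P2 and of G at P1 span 1. Such sums follow the genes with most reads: in G, Abcg2 lay below P0 while Abcg1 lay above it.

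**Figure D3:**
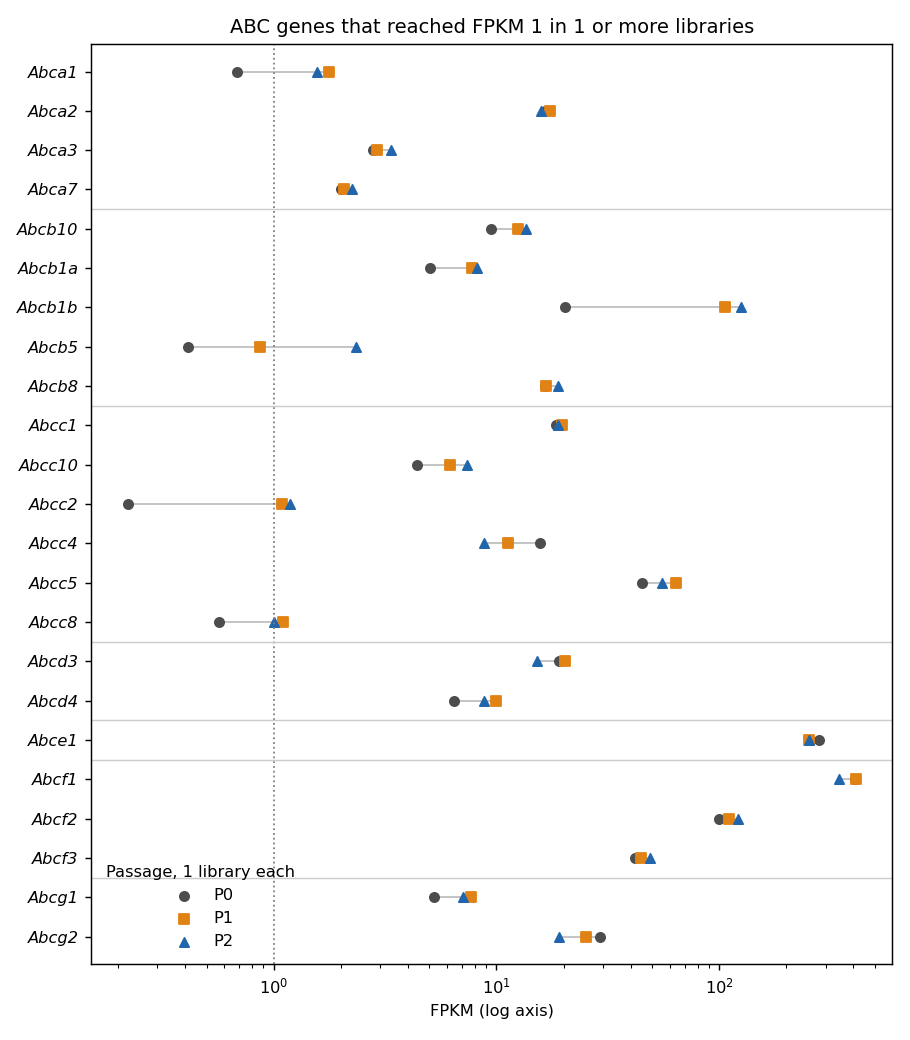
FPKM on a log x axis for 23 of the 25 ABC genes that reached FPKM 1 in 1 or more libraries, grouped by subfamily from A at the top to G at the bottom. Circles, squares and triangles are P0, P1 and P2, 1 library each, and the dotted line marks FPKM 1. Abcb1b moves furthest among genes above 5 FPKM at P0, while Abca1, Abcb5, Abcc2 and Abcc8 start below 1.

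Levels spanned a wide range, and Abcf1 and Abce1, soluble members of subfamilies F and E, had the highest FPKM in all 3 libraries. Abcf1, which binds initiation factor eIF2, measured 406, 411 and 345 FPKM. Abce1, which splits ribosomes after termination, measured 280, 251 and 253 FPKM. Abcf2 measured 99.5, 111 and 121 FPKM and Abcf3, which works with the Gcn2 kinase pathway in yeast, 41.7, 44.7 and 48.8 FPKM. Together these 4 genes held 67.1%, 60.4% and 60.1% of the family's reads. None passed 2-fold. Abce1 was slightly lower in both later libraries, at 0.897 of P0 (interval 0.874 to 0.921) and 0.903 (0.881 to 0.926). Abcf1 was level at P1, at a ratio of 1.01 (0.980 to 1.04), and lower at P2, at 0.849 (0.823 to 0.876). Abcf2 was higher, at 1.11 (1.07 to 1.16) and 1.22 (1.17 to 1.26).

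The order of levels depends on the gene length used. The lengths behind the FPKM values were within 1 base of the mean over GENCODE M21 transcripts for 41 of 50 members, and that mean includes short noncoding transcripts. For Abcf1 it was 960 bases, against 3161 for the longest coding transcript. Per kilobase of the longest coding transcript, Abce1 at P0 was at 152 and Abcf1 at 123, which turns their order round, and Abcf2 was at 99.5. On that scale Abcb1b measured 7.50 at P0, 38.9 at P1 and 46.0 at P2, placing it 12th, 4th and 4th, and Abcb1a 2.09, 3.25 and 3.42. Ratios between libraries do not depend on the length.

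Among listed partners of the soluble members, in ribosome rescue and eIF2 function, 0 of 8 measured genes passed 2-fold at P1 or P2. Of all genes, 4.12% and 6.72% were higher, so a count of 0 in so short a list is no result for it. The release factor gene Etf1 measured 333, 264 and 256 FPKM and Pelo, which rescues stalled ribosomes with Hbs1l, 23.7, 25.9 and 27.7 FPKM. Both lay within 2-fold of P0.

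Subfamily B also holds transporters of the inner mitochondrial membrane that work as pairs of identical chains. Abcb10, linked to heme synthesis in erythroid cells, was higher in both later libraries, with 9.41, 12.5 and 13.5 FPKM, at 1.32 (1.21 to 1.45) and 1.44 (1.32 to 1.57). Abcb8 measured 16.6, 16.7 and 18.8 FPKM. Its ratio was 1.01 at P1 (0.890 to 1.14) and 1.13 at P2 (1.01 to 1.27). Among 10 listed iron-sulfur and heme genes, 0 passed 2-fold, beside 4.12% of all genes higher at P1 and 6.72% at P2. A count of 0 in so short a list is no result for the list. Their median difference was 0.36 at P1 and 0.31 at P2, beside 0.06 and 0.07 over all genes compared. Fech, the last enzyme of heme synthesis, measured 10.1, 13.2 and 16.6 FPKM.

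Abcb6, a porphyrin transporter, had only 5, 3 and 0 reads. In M21, 90.3% of the 50-base windows of its longest coding transcript also belong to the overlapping model Gm29253, on the same strand, which was listed at 0 in all 3 libraries. Its low value is therefore uncertain. At P2, 0 reads allow up to 0.0592 FPKM, counting 3 reads as the limit.

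Abcb5, a relative of the P-glycoprotein genes that marks limbal stem cells of the cornea and some melanoma cells, was the other member called. It measured 0.414, 0.868 and 2.35 FPKM from 19, 31 and 104 reads. Each library was above the one before, and only P2 exceeded FPKM 1. The ratio was 2.10 for P1 over P0 (interval 1.15 to 3.93), 5.67 for P2 over P0 (3.46 to 9.80) and 2.70 for P2 over P1 (1.80 to 4.18). Its neighbours on chromosome 12, Sp8 and Itgb8, measured at most 0.608 and 0.116 FPKM, and 0 of the 50-base windows of its longest coding transcript occur in another gene. The lysosomal peptide transporter gene Abcb9 and the bile salt export pump gene Abcb11 had at most 15 and 20 reads in a library.

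**Figure D4:**
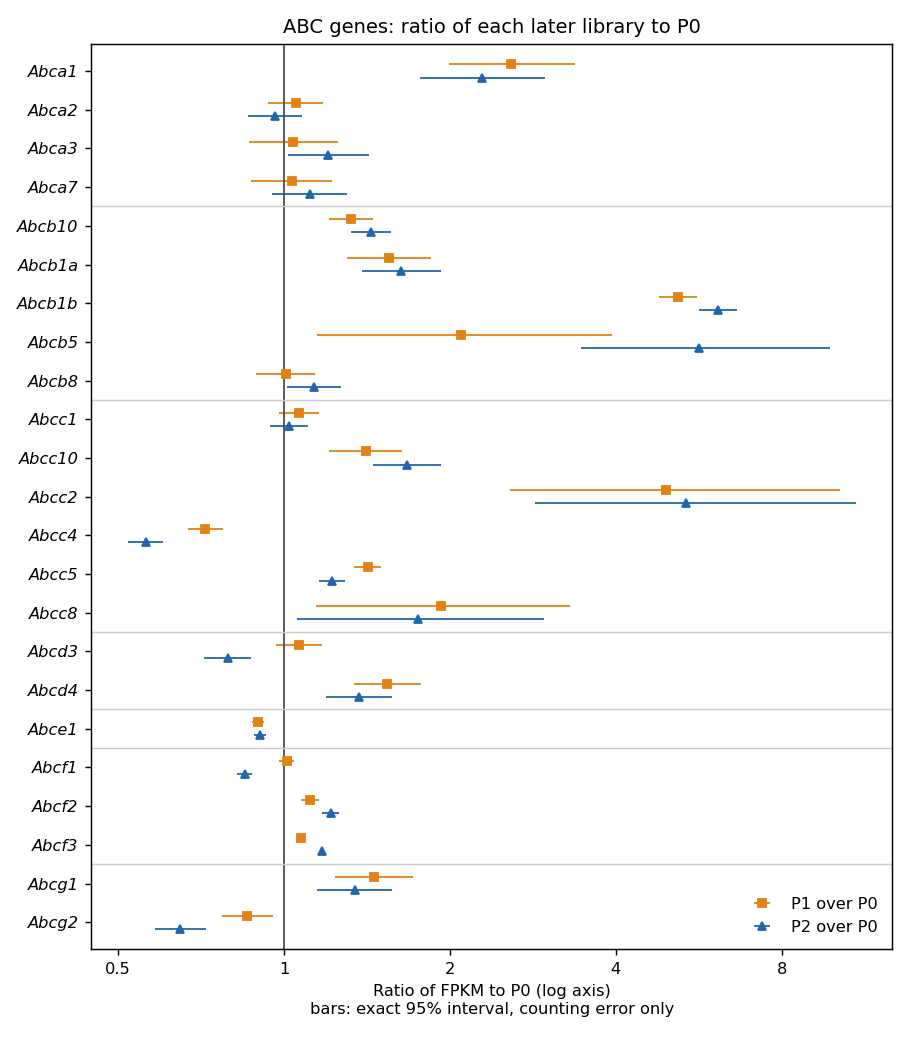
Ratio of FPKM to P0, on a log x axis, for 23 of the 25 ABC genes that reached FPKM 1, grouped by subfamily. Squares are P1 over P0 and triangles P2 over P0, with bars for the exact 95% interval of counting error between 2 libraries (none for Abcf3, whose reads are uncertain). Abcb1b stands out with narrow bars at 5.19 and 6.13, Abcb5 and Abcc2 have wide ones, and Abcc4 and Abcg2 lie to the left of 1.

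Subfamily C holds most of the organic anion and conjugate exporters. Its members lay on both sides of P0. Abcc4, which exports cyclic nucleotides and prostaglandins, lay furthest below P0 of the 24 members compared at P2, with 15.7, 11.3 and 8.79 FPKM from 2043, 1145 and 1106 reads. Each library was below the one before, and P2 was 1.78-fold lower than P0 (interval 1.66 to 1.92), short of a call. Abcc5, also a cyclic nucleotide exporter, was highest at P1, with 45.1, 64.0 and 55.1 FPKM, at 1.42 of P0 (1.34 to 1.50) and then 1.22 (1.16 to 1.29). Abcc1, the main exporter of glutathione conjugates in many cells, was level at 18.5, 19.7 and 18.9 FPKM, and both intervals against P0 span 1. Abcc10, an exporter of lipophilic anions and drugs, measured 4.41, 6.21 and 7.38 FPKM, at 1.41 (1.21 to 1.64) and 1.67 (1.45 to 1.92).

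Abcc2 and Abcc3 export conjugates from the apical and the basolateral side of liver and gut cells. Abcc2 measured 0.222, 1.09 and 1.19 FPKM from 12, 46 and 62 reads. Both later libraries were above P0, by 4.93-fold (interval 2.57 to 10.2) and 5.35-fold (2.86 to 10.9), and the difference of 0.84 at P2 on the log2(FPKM + 1) scale was short of a call. Abcc3 stayed just under FPKM 1, with 0.389, 0.880 and 0.959 FPKM from 21, 37 and 50 reads, at 2.26-fold (1.29 to 4.07) and 2.47-fold (1.45 to 4.32). Abcc6, whose loss causes ectopic mineralization, had 8, 9 and 21 reads. Abcc12 had at most 11 reads in a library.

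Abcc8 and Abcc9 are not pumps but the sulfonylurea receptors that regulate ATP-sensitive potassium channels. Abcc8 measured 0.570, 1.10 and 0.999 FPKM from 26, 39 and 44 reads, at 1.93-fold (1.14 to 3.30) and 1.75-fold (1.06 to 2.97). Abcc9 had 1, 10 and 7 reads. The genes of the channel pores, Kcnj8 and Kcnj11, measured at most 0.158 FPKM in a library.

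Of the list for drug and organic anion efflux, which takes in subfamilies B, C and G, 8 of 11 genes were compared at each later passage. Abcb1b was the 1 gene called at each passage, beside 4.12% of all genes higher at P1 and 6.72% at P2. It was the marker given for the family beforehand, so this count is no result for the list. The list's median difference was 0.45 at P1 and 0.45 at P2, beside 0.06 and 0.07 over all genes compared. Abcc2 was compared only through its later libraries, so it could only raise this median. Abcb1a, Abcb1b, Abcc2, Abcc5 and Abcc10 lay above P0 at both passages, Abcc4 and Abcg2 lay below it, and Abcc1 was level. Abcg2, the breast cancer resistance protein, measured 29.3, 25.1 and 19.0 FPKM from 891, 595 and 558 reads. Each library was below the one before, at 0.858 of P0 at P1 (interval 0.772 to 0.953) and 0.649 at P2 (0.583 to 0.722). Abcg2 and Abcb1b, whose drug substrates overlap, thus lay on opposite sides of P0 in these libraries. By FPKM, Abcg2 was above Abcb1b at P0 and below it at P1 and P2. Per kilobase of the longest coding transcript, Abcg2 measured 6.71, 5.76 and 4.36 against 7.50, 38.9 and 46.0 for Abcb1b, so on that scale it was lower at P0 too.

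Genes that sense foreign compounds did not pass 2-fold at P1 or P2: 0 of 4 compared did so, beside 4.12% and 6.72% of all genes higher. Nfe2l2, the activator of antioxidant genes, measured 31.1, 29.0 and 30.4 FPKM, and Ahr, the aryl hydrocarbon receptor gene, 3.30, 4.55 and 4.18 FPKM. Nr1i2 and Nr1i3, the xenobiotic receptors of liver, measured at most 0.192 FPKM. Among 8 glutathione genes 0 passed at P1 and 1 at P2, beside 4.12% and 6.72% of all genes higher. The gene called was Gss, the glutathione synthetase gene, with 11.7, 19.97 and 29.4 FPKM. A count of 1 in so short a list is no result for the list. The P2 ratio of Gss was 2.51 (interval 2.22 to 2.85).

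Subfamily A moves lipids, and 4 of its 16 members reached FPKM 1. Abca1, which loads cholesterol and phospholipid onto apolipoprotein, measured 0.687, 1.78 and 1.57 FPKM from 88, 177 and 194 reads. Both later libraries were above P0, by 2.59-fold (interval 1.99 to 3.38) and 2.28-fold (1.77 to 2.97), without a call at this low level. Abca2, an endosomal and lysosomal member, was the highest of the subfamily at 16.5, 17.3 and 15.9 FPKM, with both intervals spanning 1. Abca3, which fills the lamellar bodies of lung with surfactant lipid, measured 2.79, 2.90 and 3.36 FPKM and Abca7 2.01, 2.08 and 2.24 FPKM. The interval of Abca3 lay above 1 at P2, and its others and those of Abca7 span 1. The other 12 members lay between 0 and 0.660 FPKM, with 0 to 56 reads in a library. Among them Abca17 had 2, 7 and 25 reads, and 2.75% of its windows are shared with its neighbour Abca3. Abca5 had 49, 17 and 56 reads, so the lowest library was P1. Abca9 and Abca15 had 0 reads at P0 and P2, which allows up to 0.0292 and 0.0375 FPKM at P0 and 0.0303 and 0.0389 FPKM at P2, and 2 reads each at P1.

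In subfamily G, Abcg1, which passes cellular sterol to lipoprotein, measured 5.27, 7.66 and 7.07 FPKM, at 1.46 of P0 (interval 1.24 to 1.71) and 1.34 (1.15 to 1.57). Abcg4, Abcg5, Abcg8 and the rodent gene Abcg3 stayed at or below 0.562 FPKM. Abcg4 had 21, 4 and 9 reads. Across the list for sterol and phospholipid transport, 0 of 5 genes compared passed 2-fold, beside 4.12% and 6.72% of all genes higher. The list's median difference was 0.07 at P1 and 0.20 at P2, beside 0.06 and 0.07 over all genes compared. Of 11 listed genes for sterol sensing and acceptors, 0 passed at P1 and 1 of 10 compared at P2, beside 4.12% and 6.72% of all genes higher. The gene called was Mylip, a ubiquitin ligase for the LDL receptor, with 0.914, 1.83 and 3.37 FPKM. Mylip was below FPKM 1 at P0, so it could only be higher. The liver X receptor genes Nr1h2 and Nr1h3, which activate Abca1 and Abcg1 in other cells, measured 66.8, 74.3 and 70.8 FPKM and at most 1.06 FPKM. Apoe, a lipid acceptor, measured 451, 504 and 519 FPKM.

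Subfamily D serves peroxisomes and lysosomes. Abcd3, which imports branched and long acyl chains into peroxisomes, measured 19.1, 20.3 and 15.1 FPKM, at 1.06 of P0 at P1 (interval 0.965 to 1.17) and 0.791 at P2 (0.717 to 0.872). Abcd4, needed for release of cobalamin from lysosomes, measured 6.44, 9.93 and 8.81 FPKM, at 1.54 (1.34 to 1.77) and 1.37 (1.19 to 1.57). Abcd2, a peroxisomal fatty acid transporter, had at most 5 reads in a library. None of the 11 listed peroxisome genes passed 2-fold at P1 or P2, beside 4.12% and 6.72% of all genes higher. Their median difference was 0.20 and 0.19, beside 0.06 and 0.07 over all genes compared.

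Family genes filed under other symbols are Tap1 and Tap2, whose proteins pair to carry peptides for antigen presentation, and the chloride channel gene Cftr. Tap1 measured 2.55, 13.1 and 17.5 FPKM, at 5.12-fold (interval 4.25 to 6.21) and 6.85-fold (5.73 to 8.25), the same order of size as Abcb1b. Tap2 measured 0.758, 2.96 and 1.70 FPKM, at 3.91-fold (2.46 to 6.41) and 2.24-fold (1.37 to 3.75). Tap1 passed 2-fold at P1 and P2 and Tap2 at P1. Cftr had 6, 5 and 17 reads.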

How the data were processed

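FPKM values for 3 libraries were deposited by the authors, 1 per passage, so no replicates exist. Per the submitters' processing notes, Bowtie2 2.0.6, TopHat2 2.0.9 and build mm9 were used. The counting program, annotation and strand setting were not given in the sources used here. Symbols, types and gene order came from GENCODE release M21. Whole reads were recovered from FPKM, gene length and library total, and the totals were themselves inferred from FPKM and length. Of 26291 IDs above 0, 98.2% came out whole within a relative tolerance of 1e-09 (21633 at the M21 mean transcript length, 4192 at the nearest length that fitted), and the other 466 have no M21 length. For the 4192 a fitting length was searched for, so whole reads there are no check. Recovered reads summed to 100.78%, 100.75% and 100.74% of the inferred totals at P0, P1 and P2. Of 50 members, 41 used the M21 mean transcript length within 1 base and 9 the nearest length that gave whole reads. The reads and interval widths of those 9 rest on a fitted length. For Abcf3, reads share a factor of 14, so its reads and the width of its intervals are uncertain.

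Differences are of log2(FPKM + 1). Intervals are exact conditional Clopper-Pearson intervals on reads of 2 libraries. The steps were tested on simulated data. The members, lists and tests were chosen with earlier results of these data known. Any member that reached FPKM 1 could be named, and the others are given by range or reads. Tables were made in Python 3.11.15 with pandas 2.3.3 and numpy 2.4.6, intervals with scipy 1.17.1 and figures with matplotlib 3.10.9. Promoters are from RefSeq, GRCm38.p6. For 2 members, single values are not reported here, while counts and sums over the family include them.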

Additional observations from a re-analysis of the deposited data

How the results depend on the processing

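No paired analysis was possible because each passage has 1 library. With a pseudocount of 0.1, members past 2-fold numbered 3 at P1 against P0 (Abca1, Abcb1b and Abcc2), 4 at P2 against P0 (with Abcb5) and 1 at P2 against P1 (Abcb5), against 8.12%, 11.6% and 2.72% of all genes higher and 1.32%, 2.12% and 1.95% lower (4.12%, 6.72%, 0.78%, 0.549%, 1.16% and 0.883% with a pseudocount of 1). With a floor of FPKM 5, 310, 512 and 41 genes were higher and 32, 87 and 43 lower, against 548, 905, 106, 73, 156 and 120 with a floor of 1. With that floor the member count at P2 against P0 was 1. Adding Tap1, Tap2 and Cftr gave 3 at P1 (with Tap1 and Tap2) and 3 at P2 (with Tap1), both against P0. Median-of-ratios scaling moved the median of all genes by -0.11 at P1 and -0.12 at P2 and the Abcb1b ratio to 4.79 at P1 and 5.59 at P2. Summing Abcb1a and Abcb1b gave 4.30 and 5.03. The Abcb1b call at P1 and P2 against P0 held under each alternative run. Over the alternatives the medians of the members ran from 0.01 to 0.16 at P1 and 0.11 to 0.27 at P2. The medians of the members' single lower and upper interval limits were -0.02 and 0.23 at P1 and 0.06 and 0.35 at P2. That range is wide for a median, so staying inside it does not show that the median is stable. Between P2 and P1 the median was 0.04, and -0.02 with a floor of FPKM 5. Of 73 differences of single members, 10 changed sign with median-of-ratios scaling and 9 with quantile normalization, of which 0 were past 2-fold. Rescaling to 1000000 also took Abcc2 past 2-fold at P2 (1.04). Low members rest on few reads, and their differences were often not detectable at this depth. The causes of these moves were not tested.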
